A study of Mus musculus with 7 samples.

Results

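The subject here is the chromatin around *Myc* in immortalized multipotent otic progenitor (iMOP) cells, a mouse line made from embryonic inner ear progenitors with a *c-Myc* retrovirus. All peaks on chromosome 15 (mm9) that overlapped the window from 116900 bp before the start of *Myc* to 378100 bp past its end were taken, which gave 84 of the 238420 peaks deposited for the study. In ChIP-seq, chromatin is pulled down with an antibody and its DNA sequenced, and a peak is a stretch that holds more sequence tags than its background. Chromatin came from iMOP cells grown as floating otospheres with B27 and 20 ng/ml of bFGF, and each of the 3 antibodies was used on 2 biological replicates: N-262 against the N-terminal part of C-MYC, 6F1.2 against SOX2 and 4H8 against RNA polymerase II (POLII). All 6 samples came from the same retrovirus-derived cells, none had another treatment, and cells without the virus and the input DNA were not analysed here. No sorting step is described, the labels do not say whether the replicates came from 1 clone, and the cell type was not checked against markers, since the lists name no genes.

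*Myc* encodes C-MYC, a transcription factor that pairs with MAX, binds DNA at E-box motifs near promoters and drives growth and division. SOX2 is a transcription factor of progenitor cells in the inner ear and nervous system. The protein-coding part of *Myc* lies in its later exons, and the gene is controlled in part by enhancers spread over a long stretch downstream, in and beyond the long noncoding RNA gene *Pvt1*. In the RefSeq annotation of GRCm38, *Pvt1* is the next gene after *Myc* and the nearest gene before it is the pseudogene *Gm18788*. Those positions are of another build, so neither *Pvt1* nor the exons of *Myc* were placed on the peaks. Retroviral expression vectors as a rule carry a cDNA, which has exons and no introns and lacks the native promoter. Tags from such a cDNA cannot be told apart from tags of the native exons in a list of peaks, and all 6 samples would carry it.

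The window reaches farther past the gene than before it. *Myc* is about 5000 bp long here, and 10 peaks lay over it, 69 at higher positions (downstream) and 5 at lower positions, all 5 of the latter from POLII replicate 1. Counted as regions of merged peaks, 5 of the 32 outside the gene lay before it and 27 past it. C-MYC replicates 1 and 2 had 16 and 15 peaks in the window, SOX2 replicates 1 and 2 had 15 and 9, and POLII replicates 1 and 2 had 16 and 13. In all, the peak numbers per list were 26637 to 53528, with 1705241 to 4488517 tags inside them. The window took a similar part of each list's tags. Its share ran from 0.0410% in SOX2 replicate 2 (95% exact Clopper-Pearson interval 0.0380 to 0.0440) to 0.0542% in SOX2 replicate 1 (0.0515 to 0.0570). These intervals cover counting error only.

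Merging the peaks of all lists where they overlapped by 1 bp or more left 34 regions in the window. A peak of all 6 lists was present at 2 of the 34 regions, against 2.25% of the 115440 merged regions of the genome. Both C-MYC lists had a peak at 14 regions (30.8% in the genome), both SOX2 lists at 7 (14.4%) and both POLII lists at 3 (4.72%). Both C-MYC and both SOX2 lists were present together at 7 (12.6%), at least 4 lists at 13 (20.0%) and 1 list alone at 18 (57.0%). POLII replicate 1 stood apart, as it did in the genome: 13 of its 16 window peaks overlapped no peak of another list, and 13 of the 34 regions were its alone (35.2%). Its whole list held 53528 peaks, and 40660 merged regions of the genome were its alone, so most of its peaks overlapped no other list there too. Without POLII replicate 1, 5 of 21 regions held a peak of all 5 other lists (17.5%).

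**Figure D1:**
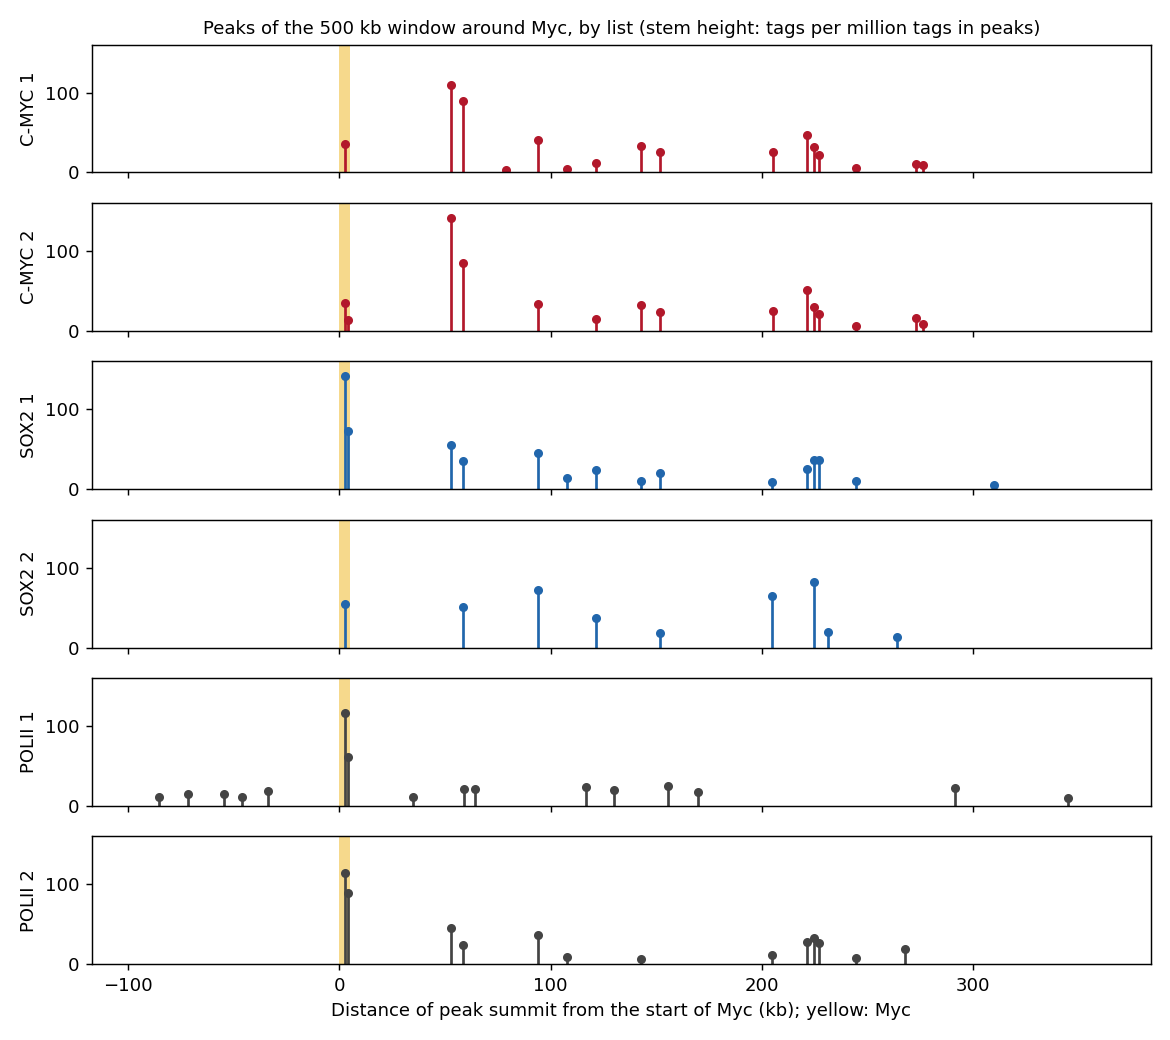
Each stem is a peak of the window, placed by the distance of its summit from the start of Myc (kb) and as high as its scaled tags (tags per 1000000 tags in peaks), with 1 panel for each of the 6 lists and Myc in yellow. The highest stem stands over Myc in SOX2 1, POLII 1 and POLII 2, and downstream of the gene in both C-MYC lists and in SOX2 2.

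Over the gene itself the peaks fell into 2 regions, and neither covered the start of the gene. The upstream *Myc* region (61817529 to 61820013) had 1 peak of every list. The downstream *Myc* region (61820741 to 61821677) had a peak of C-MYC replicate 2, SOX2 replicate 1 and both POLII replicates. C-MYC replicate 1 and SOX2 replicate 2 listed none there, which says only that none passed the authors' calling threshold. A stretch of 727 bp between these regions held no peak of any list. The number of peaks over the start of *Myc* was 0. The nearest peak, of SOX2 replicate 1, began 629 bp into the gene, the earliest summit of any list lay 2736 bp into it, and the nearest peak before the gene ended 33609 bp away. POLII had its listed signal in the body and toward the end of *Myc*, and the lack of a peak at the start says only that none passed calling. The paper describes more POLII peaks at the *c-Myc* gene than the 2 that each POLII replicate listed over it here. It assigns its peaks to promoters of known splice variants, with C-MYC and SOX2 bound there. The numbers of peaks thus differ, and which of those in the paper are listed here was not checked, since the exons were not placed.

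The upstream region held 103 and 108 tags in C-MYC replicates 1 and 2. It held 392 and 97 tags in SOX2 replicates 1 and 2. POLII replicates 1 and 2 had 198 and 510 tags there. Since the lists differ in depth, scaled tags were computed, per 1000000 tags in all peaks of the list. C-MYC had 36.0 and 34.3 scaled tags, SOX2 142 and 54.4, and POLII 116 and 114. Both C-MYC values were the lowest, the POLII values nearly coincided and fell between those of SOX2, and SOX2 replicate 1 was the highest. The closeness of the POLII values depends on this scaling. In the fits over shared regions given below, the log2 fold change of C-MYC was -1.41 against POLII replicate 2 alone. Against POLII replicate 1 alone it was -2.55. The peaks covered 1486 and 2031 bp in the C-MYC lists, 2470 and 1399 bp in the SOX2 lists, and 1412 and 1388 bp in the POLII lists. Per kb of peak, unscaled, C-MYC had 69.3 and 53.2 tags, SOX2 159 and 69.3, and POLII 140.2 and 367.

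The downstream region held 43 tags in C-MYC replicate 2, 201 in SOX2 replicate 1, and 105 and 403 in POLII replicates 1 and 2. This was 13.6, 72.9, 61.6 and 89.8 scaled tags, so that C-MYC was again the lowest of the lists with a peak. The upstream region held more tags than the downstream region in each of these 4 lists, by 2.51 times in C-MYC replicate 2, 1.95 in SOX2 replicate 1, and 1.89 and 1.27 in the POLII replicates.

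**Figure D2:**
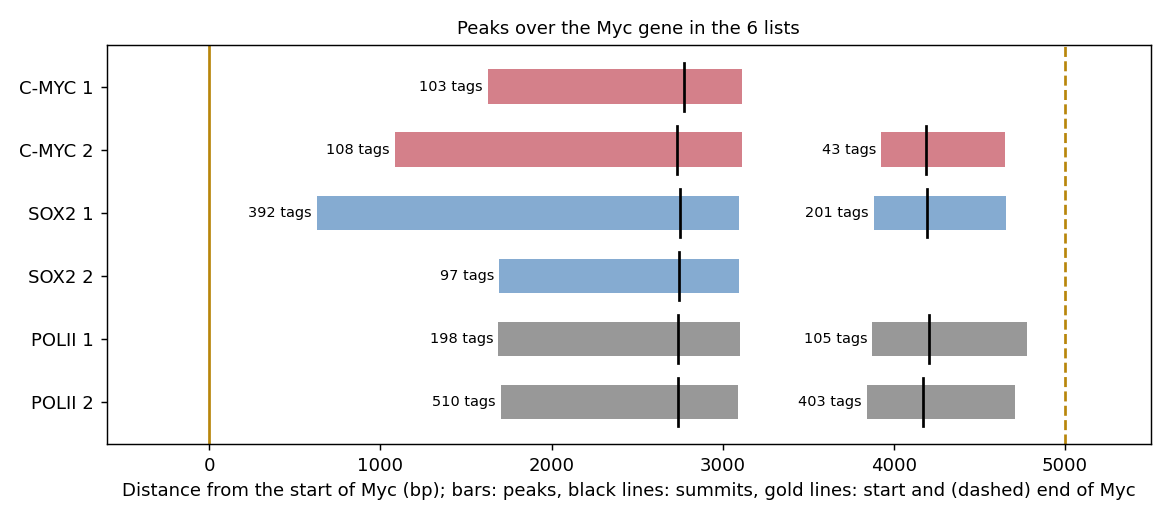
Bars are the peaks over Myc in the 6 lists, drawn by distance from the start of the gene (bp), with black lines at the summits and the tag counts beside them. All peaks lie well inside the gene, and the summits and right edges of the upstream peaks line up across the 3 antibodies.

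The summits and ends of the upstream region nearly coincided with every antibody, while its starts did not. Its 6 summits lay between 61819636 and 61819673, a range of 37 bp. Its 6 peaks ended between 61819992 and 61820013, a range of 21 bp. Their starts were spread over 1076 bp, because the peaks of SOX2 replicate 1 and C-MYC replicate 2 began earlier than the rest. For comparison, 2486 regions of the genome had exactly 1 peak of each of the 6 lists, and there the median range was 371.5 bp for summits, 439 bp for ends and 435 bp for starts. A range of ends at or under 21 bp was found at 1 of the 2486 regions (0.0402%), the *Myc* region itself. A range of summits at or under 37 bp was found at 30 (1.21%). The start range was wide, with 87.8% of the regions at or under it. The small range of ends did not rest on 1 library: it was 20 or 21 bp whichever list was left out, but with 5 lists more regions had a range as small, up to 6 of 3463 without SOX2 replicate 2 and 10 of 12553 without POLII replicate 1.

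In the downstream region the 4 summits lay between 61821068 and 61821108, a range of 40 bp, which 2.94% of 3605 regions with 1 peak of each of these 4 lists matched or undercut. Its ends ranged over 125 bp (15% at or under) and its starts over 86 bp (8.38%), so its edges were less set apart than its summits. Close summits were not limited to the gene. Elsewhere in the window, the regions that began 52035, 151401, 220750 and 244418 bp from the start of *Myc* had summits within 19, 30, 13 and 12 bp over 4 lists. The region 57582 bp from the start, the other one with a peak of all 6 lists, had summits spread over 362 bp and ends over 153 bp.

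**Figure D3:**
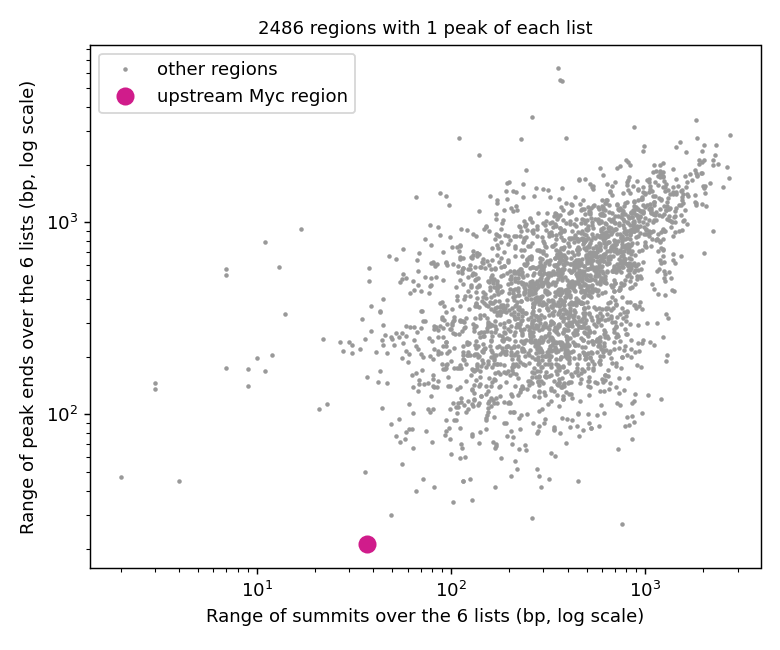
Each point is 1 of the 2486 regions with exactly 1 peak of each list, placed by the range of its 6 summits (bp, log scale) and the range of its 6 peak ends (bp, log scale). The upstream Myc region, at 37 and 21 bp, is the lowest point of the plot.

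The *Myc* peaks combined many tags with a low fold enrichment. The fold enrichment is the authors' ratio of a peak over its background, and the sources used here do not name that background. In the upstream region it was 4.08 and 4.07 for C-MYC, 5.16 and 4.60 for SOX2, and 5.72 and 5.02 for POLII. The medians of the whole lists were 10.6 and 10.5, 8.96 and 6.61, and 7.61 and 7.91. All 6 values were under the median of their own list. In the C-MYC lists, 0.424% and 0.476% of all peaks had a lower fold enrichment, in the SOX2 lists 5.71% and 10.8%, and in the POLII lists 20.3% and 12.7%. By tags per kb the same peaks stood above the median of every list. The share of peaks with fewer tags per kb was 66.8% and 52.7% for C-MYC, 95.03% and 68.1% for SOX2, and 99.8% and 97.9% for POLII.

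The downstream region showed the same combination in 3 of its 4 lists. SOX2 replicate 1 and POLII replicates 1 and 2 had more tags per kb there than 99.5%, 99.6% and 99.6% of their peaks, with fold enrichments of 5.31, 5.76 and 5.07. C-MYC replicate 2 had a fold enrichment of 6.24, lower than all but 8.47% of its peaks, and a tag density above 58.7% of them.

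The upstream *Myc* peaks had a low significance for their number of tags. This measure rests on the same tags as the fold enrichment, so it is not independent of it. Each peak has a score, 10 times the −log10 of its p-value. In the upstream region it stood above 50.1% and 3.13% of the peaks for C-MYC, 22.0% and 38.7% for SOX2, and 99.0% and 78.9% for POLII. SOX2 replicate 1 had a score of 58.7 with 392 tags in the upstream region, or 0.150 per tag, and 0.0577% of its peaks had a lower score per tag. In the other 5 lists the score per tag of the upstream peak was between 0.477 and 1.02, against list medians from 1.87 to 3.21, and between 1.45% and 7.91% of the peaks were lower. For the downstream peaks the share of lower peaks ran from 3.06% (POLII replicate 1) to 26.2% (POLII replicate 2). Among the 2599 regions with a peak of all 6 lists, 10 (0.385%) had a score per tag above at most 7.91% of the peaks in every list, the highest standing of the upstream *Myc* peaks. By fold enrichment, 10 (0.385%) stood above at most 20.3% of the peaks in every list, and 5 of these also stood above at least 52.7% by tags per kb in every list, the *Myc* region included in each count. The highest fold enrichment over the 6 lists was at or under that of the upstream region at 6 of the 2599 regions (0.231%), itself included.

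A large peak on chromosome 17 from 39979834 to 39985882 in C-MYC replicate 1, at a position that fits the ribosomal RNA gene *Rn45s* of mm9, served as a reference for repeated DNA, since ribosomal RNA genes are present in many copies. Each list except POLII replicate 1 had a peak there. It held 1957 and 2071 tags in the C-MYC lists, 5952 in SOX2 replicate 2, 6094 in SOX2 replicate 1 and 4056 in POLII replicate 2. Its fold enrichment was between 1.95 and 3.78, and at most 0.231% of the peaks in any of these lists were lower. Against it, the *Myc* peaks had fewer tags per kb and a higher fold enrichment in all 5 lists. In the C-MYC lists the fold enrichments of the upstream peaks were close to it, at 4.08 against 3.78 and 4.07 against 3.65. They were 5.16 against 1.95 and 4.60 against 2.45 in SOX2 replicates 1 and 2, and 5.02 against 2.12 in POLII replicate 2. By tags per kb, the reference peak stood above at least 99.68% of the peaks in each of these lists. The upstream *Myc* peak stood above 52.7% (C-MYC replicate 2) to 97.9% (POLII replicate 2) in the same lists. Whether added copies of the *Myc* exons from the retrovirus are part of the signal was not tested, because the copy number, the input DNA and exon positions of this build were not analysed here. The comparison with the reference peak does not bear on this question, since the number of copies was measured at neither place.

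**Figure D4:**
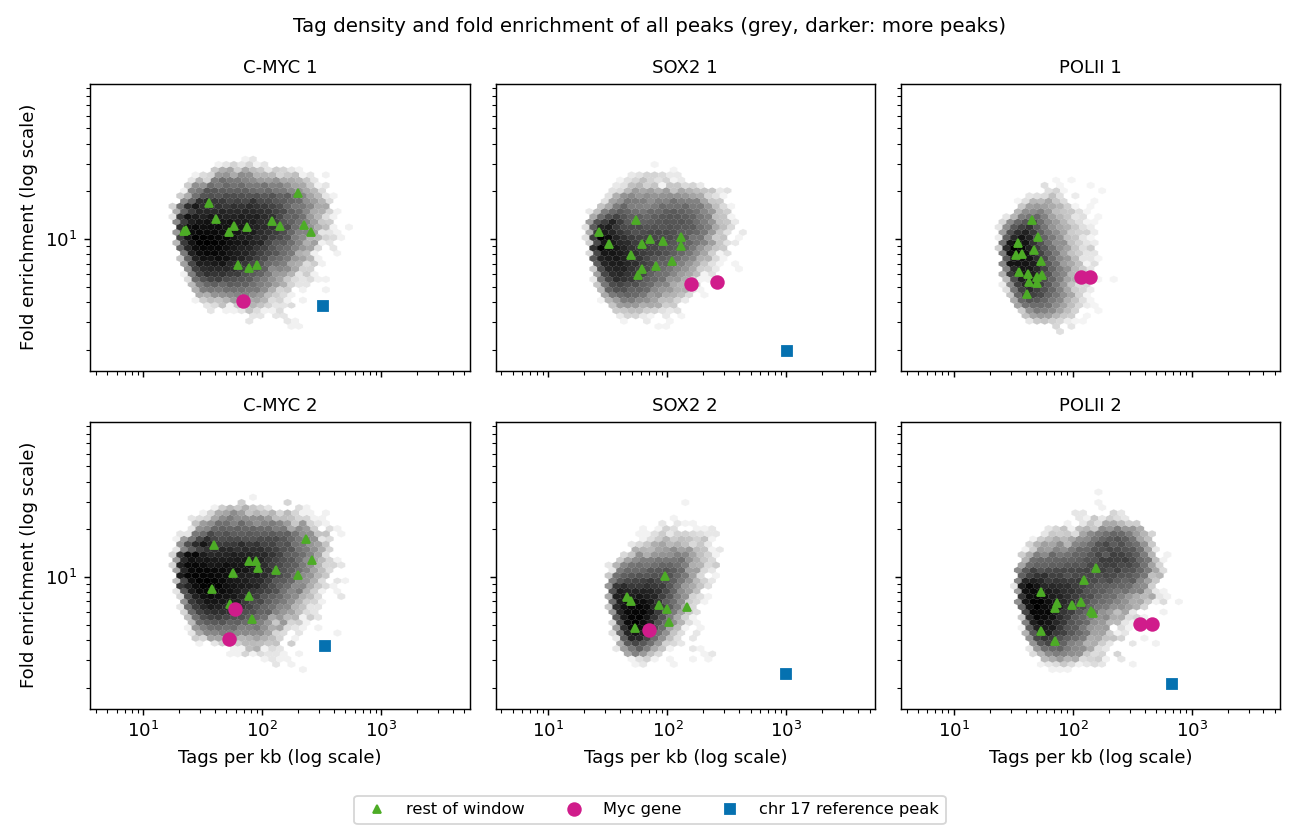
Grey shading shows the peaks of each list by tags per kb (log scale) and fold enrichment (log scale), darker where there are more. The peaks over Myc (pink circles) lie in the lower part of the cloud, and toward its right edge in SOX2 1 and both POLII lists, while most other window peaks (green triangles) lie within it. Blue squares mark the chromosome 17 reference peak, which POLII 1 does not have.

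In the rest of the window the order of the antibodies varied. At the 11 regions outside the gene with a peak of at least 4 lists, both C-MYC values were above those of all other lists with a peak at 5, under them at 4, and neither at 2 regions, in scaled tags. How often these orders occur over all merged regions was not computed, and the lists compared differed between regions, so the counts only describe the window. The C-MYC peaks with the most tags were in the region 61868935 to 61871180, which began 52035 bp from the start of *Myc*. C-MYC replicates 1 and 2 held 314 and 446 tags there, or 110 and 141 scaled tags, at fold enrichments of 11.02 and 10.37. SOX2 replicate 1 held 154 tags (55.8 scaled) and POLII replicate 2 held 202 (45.004 scaled). SOX2 replicate 2 and POLII replicate 1 listed no peak. Both C-MYC values were above those of the other antibodies, the reverse of the order over *Myc*. The upstream *Myc* region had 0.328 and 0.242 times the tags of this lead peak in C-MYC replicates 1 and 2, but the ratio was 2.55 for SOX2 replicate 1 and 2.52 for POLII replicate 2.

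The region 61874482 to 61876114 was the other one with a peak of all 6 lists. C-MYC had 256 and 266 tags there (89.5 and 84.4 scaled), SOX2 96 and 90 (34.8 and 50.4 scaled), and POLII 37 and 110 (21.7 and 24.5 scaled). In scaled tags C-MYC was the highest and POLII the lowest. How often the antibodies separate in this way at other regions with a peak of all 6 lists was not computed. Fold enrichments were 12.2 and 12.7 for C-MYC, higher than at the region with the most tags, 6.50 and 10.1 for SOX2, and 5.27 and 6.62 for POLII.

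Farther out, C-MYC peaks with the highest fold enrichment of the window lay in the region 61959253 to 61959751, with 94 and 102 tags at 19.6 and 17.4. SOX2 replicate 1 had 29 tags and POLII replicate 2 had 32 tags there. SOX2 replicate 2 had its lead peak at 62041418 to 62042423, with 146 tags (81.8 scaled), where SOX2 replicate 1 had 100 (36.3 scaled) and the C-MYC lists had 90 and 95. As a ratio, the SOX2 replicates differed most in the region 62021076 to 62022459, with 24 and 114 tags, or 8.70 and 63.9 scaled tags. The C-MYC replicates had 72 and 79 tags there, which are nearly equal.

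**Figure D5:**
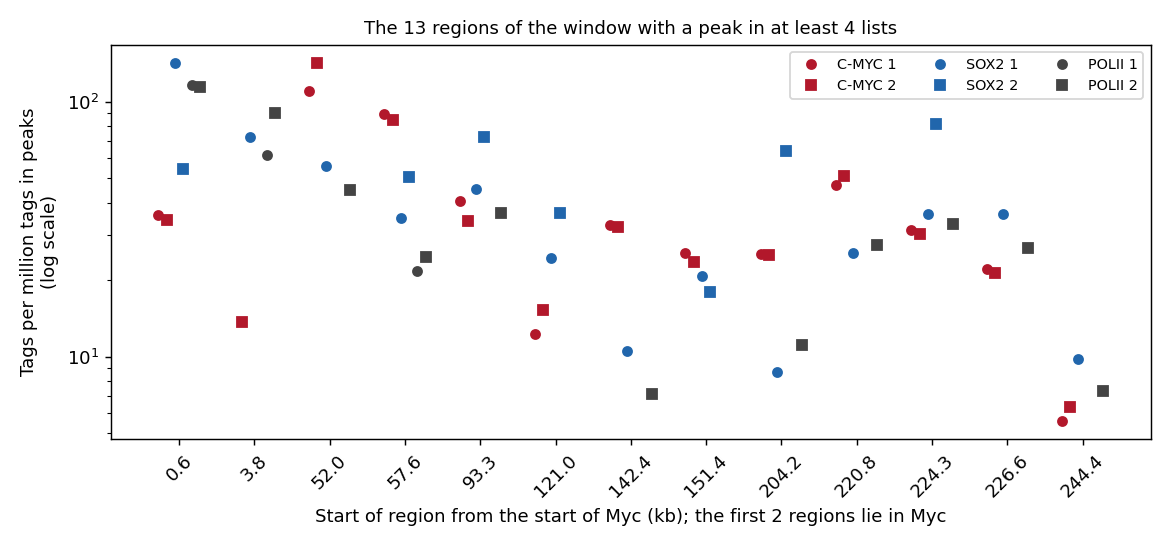
Scaled tags (tags per 1000000 tags in peaks, log scale) in each list at the 13 window regions with a peak in at least 4 lists, ordered by distance from the start of Myc (kb). C-MYC is the lowest antibody at the 2 regions in Myc and at 4 of the 11 others, and the highest at 5, among them those starting 52.0 and 57.6 kb downstream, and the C-MYC replicates lie closer together than the SOX2 replicates at the 7 regions with a peak of all 4. How often these orders occur in the genome was not computed.

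Outside the gene, the median fold enrichment of the window peaks was 11.9 and 11.1 in the C-MYC lists, 9.26 and 6.56 in the SOX2 lists, and 6.73 and 6.62 in the POLII lists. In C-MYC replicate 1 and both SOX2 lists, no other window peak was as low as those over *Myc*. In C-MYC replicate 2, 1 of 13 was under the higher of the *Myc* values, and in POLII replicates 1 and 2, 3 of 14 and 2 of 11 were under both. Peaks over the gene held 42.4% and 45.2% of the window's tags in POLII replicates 1 and 2 and 39.7% in SOX2 replicate 1, but 13.3% in SOX2 replicate 2 and 7.13% and 8.92% in C-MYC replicates 1 and 2.

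The differences between antibodies were tested across all merged regions with a peak of each of the 4 samples compared, with edgeR's quasi-likelihood test and Benjamini-Hochberg adjustment. Over the upstream *Myc* region, the log2 fold change of C-MYC to SOX2 was -1.30 ± 0.64 (SE, n = 2 against 2, adjusted p = 0.498 over 14520 regions, edgeR). Against POLII the log2 fold change of C-MYC was -2.09 ± 0.63 (adjusted p = 0.727 over 3836 regions, edgeR). For SOX2 against POLII it was -0.88 ± 1.41 (adjusted p = 1.00 over 2959 regions, edgeR). None passed the threshold of 0.05. The number of regions called in these fits was 0 in each direction (0%) in all 3 comparisons, with 1521, 189 and 37 regions at an unadjusted p under 0.05, and DESeq2 called 37, 25 and 0. In the edgeR fits, 94.4% of the tested regions had a higher log2 fold change of C-MYC to SOX2 than the upstream *Myc* region, and 94.1% a higher one of C-MYC to POLII. At 4 of the 6 tested window regions outside the gene the log2 fold change of C-MYC to SOX2 was also negative. The median over all 14520 tested regions was itself negative, at -0.11, so this count does not set the window apart. The region at 61874482 lay at the opposite end, with 2.86% and 1.15% of the regions higher and log2 fold changes of 1.31 ± 0.38 (adjusted p = 0.471, edgeR) and 1.59 ± 0.53 (adjusted p = 0.727, edgeR). The comparisons share samples and are not independent of each other.

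These values depended on which SOX2 or POLII library was kept. Without SOX2 replicate 2 the log2 fold change of C-MYC to SOX2 was -1.93 (adjusted p = 3.55e-12, edgeR), and without SOX2 replicate 1 it was -0.21 (adjusted p = 0.304, edgeR). Over all alternatives this adjusted p ran from 3.55e-12 to 1.00. Without POLII replicate 1 or 2, that of C-MYC to POLII was -1.41 (adjusted p = 2.40e-09, edgeR) or -2.55 (adjusted p = 3.94e-11, edgeR), with a range from 3.94e-11 to 1.00 over all alternatives. With a lone sample in 1 arm, these fits take their spread from the C-MYC replicates alone, and assume that the lone library varies as they do.

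The regions with the values most like those of the upstream *Myc* region over the 6 lists, by Euclidean distance of log2 scaled tags among 2598 regions with a peak of all lists, were 7:89919375-89920862, 3:98185681-98187520, 11:69213218-69216294, 2:25227136-25230186 and 8:123631521-123633096. Their distances were between 1.14 and 1.78, against a median of 3.89. The nearest held 73 and 68 tags in the C-MYC lists, 298 and 118 in the SOX2 lists and 183 and 339 in the POLII lists. Its fold enrichments, 7.34 to 9.91, were all above those of the upstream *Myc* region. The lowest fold enrichment of the other 4 was 6.27, 4.24, 4.18 and 3.87, in the same order, so that 3 of them reached values within or under those of the upstream *Myc* region in at least 1 list.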

How the data were processed

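The authors deposited 1 peak list per ChIP sample, with replicates not pooled, with positions on mm9 per the submitters' processing notes. The deposited tags are raw counts per peak, not scaled for depth. The deposited fold enrichment is a linear ratio over a background that is not stated, and the deposited score is 10 times the −log10 of a p-value (largest p 1e-05). Aligner, caller and filters are not given in the sources used here, and the column names are those of MACS. No list of the input sample was used.

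Peaks sharing at least 1 bp were merged into 115440 regions in python 3.11.15 (pandas 2.3.3, numpy 2.4.6, scipy 1.17.1). Tags were summed per region and scaled to tags per 1000000 tags in peaks. A region without a peak has no tag count, so each comparison used regions with a peak in all 4 samples. The test was edgeR 4.0.16 (R 4.3.3, TMM, quasi-likelihood), with SEs derived from its F statistic. DESeq2 1.42.0 was an alternative. Positions in *Myc* are about those of the gene in mm9. The window, the gene and the tests were chosen with earlier results of these data known. *Myc*, its window and the 5 most similar regions were the items to be named, and other window regions were picked after their values were seen. A list of MYC family and partner genes could not be placed without an mm9 annotation. Labels give biological replicates, so p-values measure the spread between these samples. Scripts were tested on simulated data.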

Additional observations from a re-analysis of the deposited data

How the results depend on the processing

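Total read numbers are not in the lists, so depth is known only as tags in peaks, and a missing peak is not a count of 0. Of 104 recomputed values, 84 kept their direction and side of the threshold or stayed within the spread, 3 newly passed the threshold and 17 moved. The cause was not tested. The log2 fold changes over the upstream *Myc* region were negative in all 3 comparisons under every alternative. When a replicate was left out, they ran from -1.93 to -0.21 (C-MYC against SOX2), from -2.55 to -1.41 (C-MYC against POLII) and from -1.50 to -0.09 (SOX2 against POLII), and the numbers of regions called ran from 0 to 9765, from 0 to 2816 and from 0 to 7. The median log2 fold change of all tested regions was -0.11, -0.19 and -0.08, and -0.37, -0.06 and 0.19 without TMM, where the *Myc* region was at -1.49, -1.71 and -0.22. The highest numbers came from fits with a lone SOX2 or POLII library. DESeq2 called 37, 25 and 0 regions.

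With the replicate block, the log2 fold changes were -1.07, -1.98 and -0.84 (adjusted p = 0.817, 1.00 and 1.00, edgeR), and 7, 1 and 0 regions were called in the same order. The replicate differences of the antibodies correlated over regions at 0.042, -0.024 and -0.608. The labels name no batch, so whether replicates of the same number share one is not known.

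Scaled tags of POLII over C-MYC in the upstream region were 3.27 times, and 2.90 times relative to the median peak, with 3.19 to 3.35 when a library was left out. This narrow range belongs to the scaling by all tags in peaks. In the fits, leaving out a POLII replicate moved the log2 fold change of C-MYC to POLII to -1.41 or -2.55. SOX2 over C-MYC was 2.80 times, with 1.55 to 4.04 when a library was left out. POLII over SOX2 was 1.17 times, with 0.808 to 2.11 when a library was left out, so its direction rested on SOX2 replicate 2. The mean standing of the upstream peaks was above 80.1% of the peaks by tags per kb, and 76.1% to 85.5% without 1 list. It was 8.40% by fold enrichment, 48.6% by score, 4.21% by score per tag, and 62.6% among regions in all 6 lists. The share of regions with peak ends as close was 0.0402%, 0.441% (1 of 227) among regions at least as long, 1.21% for summits, and 0.0386% to 0.173% without 1 list. The measures by score per tag and by summits, and those that leave out a list for ratios and standings, were added after seeing the data.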
